A study of Mus musculus with 8 samples.

Results

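The genes of MHC class II antigen presentation were examined in libraries labelled as type 2 innate lymphoid cells (ILC2) of the mouse thymus. The genes were picked by symbol: 4 class II chains (H2-Aa, H2-Ab1, H2-Eb1 and H2-Ob), the invariant chain gene Cd74, and Apoe as a macrophage reference, 6 of the 10913 genes listed. They were picked with the difference between the genotypes in these libraries known, so their values in that contrast are given as a description and without a test. The study set young male Il25 KO mice, which lack the tuft cell cytokine IL-25, against age-matched male WT mice. All mice were untreated. The sources used here give neither strain nor exact age. Sorting followed digestion of the thymus with Liberase TM and DNase, and poly(A) RNA of the sorted cells was made into 4 libraries per genotype by MARS-seq, which counts 3′ ends of transcripts with a unique molecular identifier (UMI) per molecule. The labels call the libraries replicates without naming separate animals, so p-values measure only the spread between these libraries. No source used here states the sort gate.

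MHC class II molecules are pairs of an α and a β chain that carry peptides from the endosomal route to the cell surface, where CD4+ T cells read them. The invariant chain occupies the groove of a new class II molecule until proteases remove it, and the exchange factor H2-DM, held back by H2-O, then loads the peptide. In the thymus, epithelial cells, dendritic cells, macrophages and B cells make class II, and ILC2 of mice have been described to carry it at lower levels.

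The 4 class II chain genes lie side by side on chromosome 17 within 77772 bases of GRCm38, by the GENCODE M21 annotation. H2-Ob is at chr17:34238903-34254414, H2-Ab1 at chr17:34257689-34269419 and H2-Eb1 at chr17:34305867-34316674, each on the plus strand, while H2-Aa is at chr17:34282744-34287823 on the minus strand. H2-Eb1 shares 2204 bases with the antisense transcript Gm20513. No source used here states whether the authors counted by strand, so reads of this pair cannot be told apart there.

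The promoters of 3 class II genes are printed because they share an element that the choice by name did not use. Each sequence is from RefSeq (GRCm38.p6), runs 5′ to 3′ on the strand of the gene, and holds 250 bases before and 50 after the start. The windows are chr17:34287774-34288073 for H2-Aa, chr17:34305617-34305916 for H2-Eb1 and chr17:34238655-34238954 for H2-Ob. Capitals mark first CTNGCAAC, the letters of the X box shared by the 3 genes, and then ATTGG, the core of the Y box. X and Y boxes are the class II promoter elements that RFX and NF-Y bind.
H2-Aa: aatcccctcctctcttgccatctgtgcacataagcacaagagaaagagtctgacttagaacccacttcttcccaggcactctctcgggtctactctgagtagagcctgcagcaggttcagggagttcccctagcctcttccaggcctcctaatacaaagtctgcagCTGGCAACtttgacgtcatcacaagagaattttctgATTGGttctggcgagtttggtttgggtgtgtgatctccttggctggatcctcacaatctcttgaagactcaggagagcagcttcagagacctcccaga
H2-Eb1: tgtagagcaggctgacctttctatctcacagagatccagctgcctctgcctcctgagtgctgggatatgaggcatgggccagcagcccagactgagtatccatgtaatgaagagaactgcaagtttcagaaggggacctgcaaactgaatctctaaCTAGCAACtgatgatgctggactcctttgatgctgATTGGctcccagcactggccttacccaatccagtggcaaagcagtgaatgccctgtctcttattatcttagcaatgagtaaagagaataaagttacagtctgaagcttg
H2-Ob: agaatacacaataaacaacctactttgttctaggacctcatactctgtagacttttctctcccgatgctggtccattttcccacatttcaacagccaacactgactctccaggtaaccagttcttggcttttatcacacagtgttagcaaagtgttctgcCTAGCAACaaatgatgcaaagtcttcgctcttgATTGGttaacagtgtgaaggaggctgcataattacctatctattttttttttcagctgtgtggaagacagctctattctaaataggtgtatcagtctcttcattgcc

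The boxes were separated by 28 bases in H2-Aa, 27 in H2-Eb1 and 25 in H2-Ob, and the first box began 84, 94 and 90 bases before the start, in the same order. The letters were chosen after these 3 sequences had been seen. Over 32851 mouse promoters of the same length, 3.42% held CTNGCAAC and 37.4% held ATTGG on either strand, and the motifs do not overlap each other. Only 25 promoters (0.0761%) held the first followed by the second within 40 bases on the strand of the gene, the 3 printed ones among them. Of the 6 genes, 4 had a promoter entry. H2-Ab1 and Cd74 had none, so they were not searched for the letters. The 3 RefSeq promoters of Apoe held neither set of letters on the strand of the gene. Of 22 other genes of the class II lists with a promoter entry, 0 held the pair. A match is a description and not evidence of binding.

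Libraries held 1915365 to 3250718 UMIs. Markers matched the label in part. All 13 ILC2 markers were listed, with summed levels, as CPM (UMIs scaled to a common library size), of 2529 to 2805 in KO and of 2526 to 2936 in WT. Most of that sum was Thy1, Tcf7 and Ptprc, which thymocytes also make. Il17rb, a chain of the IL-25 receptor, lay at 147 to 192 CPM in every library. Other markers of the ILC2 list were also present in every library. Gata3 lay at 49.04 to 82.35 CPM, Id2 at 79.94 to 140.2 CPM and Il2ra at 99.79 to 186.5 CPM. Il7r lay at 29.25 to 40.01 CPM, Bcl11b at 20.33 to 45.21 CPM and Areg at 15.81 to 62.14 CPM. By contrast, the ILC2 cytokine genes Il13 and Il4 stayed at or below 9.21 and 4.19 CPM and the costimulatory receptor gene Icos at or below 2.93 CPM. The thymocyte and T cell markers, 17 of 20 listed, summed to 3720 to 4866 CPM, more than the ILC2 markers in every library, led by Dntt, the DNA polymerase of antigen receptor joints, at 1835 to 2552 CPM. Part of that list is also made by innate lymphoid cells. Il25 was not analysed here, so the genotype labels could not be checked by it. WT replicate 1 stood apart from the other libraries: 56 genes (0.631% of 8878) with at least 10 UMIs there lay at least 3-fold above the median of the other 7 libraries on the scale of CPM + 1, against 1 to 5 genes when each other library was treated the same way. Results below are therefore given with and without it.

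Cd74, at chr18:60803848-60812652 on the plus strand, encodes the invariant chain. It was measured at 18.7, 19.8, 26.2 and 23.4 CPM in KO replicates 1 to 4. In WT it was measured at 74.0 CPM in replicate 1 and at 16.2, 21.1 and 19.4 CPM in replicates 2 to 4. WT replicate 1 was 3.75-fold above the median of the other 7 libraries, and those 7 overlapped between the genotypes. H2-Aa, the α chain of the class II molecule I-A, was measured at 17.2, 17.7, 15.2 and 14.7 CPM in KO and at 109.7, 11.9, 16.6 and 18.4 CPM in WT. The first WT value is 6.59-fold above the median of the rest, and the KO values lie inside the range of the other 3 WT values. H2-Ab1, the β chain of I-A, was measured at 39.7, 48.9, 50.2 and 60.7 CPM in KO and at 155, 54.5, 47.6 and 64.5 CPM in WT. Here too WT replicate 1 was high, 3.1-fold above the median of the rest, and the other libraries overlapped.

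H2-Eb1, the β chain of the class II molecule I-E, showed the widest gap. It was measured at 6.74, 14.6, 7.77 and 8.37 CPM in KO and at 80.4, 5.53, 4.76 and 5.08 CPM in WT. WT replicate 1 was 11.9-fold above the median of the others, yet the remaining 3 WT libraries were the lowest of all 8. H2-Ob, the β chain of the inhibitor H2-O, was measured at 4.49, 4.68, 6.80 and 8.37 CPM in KO and at 4.73, 3.95, 4.42 and 3.18 CPM in WT. It did not stand out in WT replicate 1, at 1.05 times the median of the others. Its counts were low, 9 to 21 UMIs per library. Apoe, at chr7:19696109-19699188 on the minus strand, encodes a lipid carrier made in quantity by macrophages. It was measured at 28.5, 20.8, 15.5 and 29.3 CPM in KO and at 94.2, 13.4, 15.3 and 25.7 CPM in WT. It followed the class II chains, with WT replicate 1 at 4.53 times the median of the others and the rest overlapping.

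**Figure D1:**
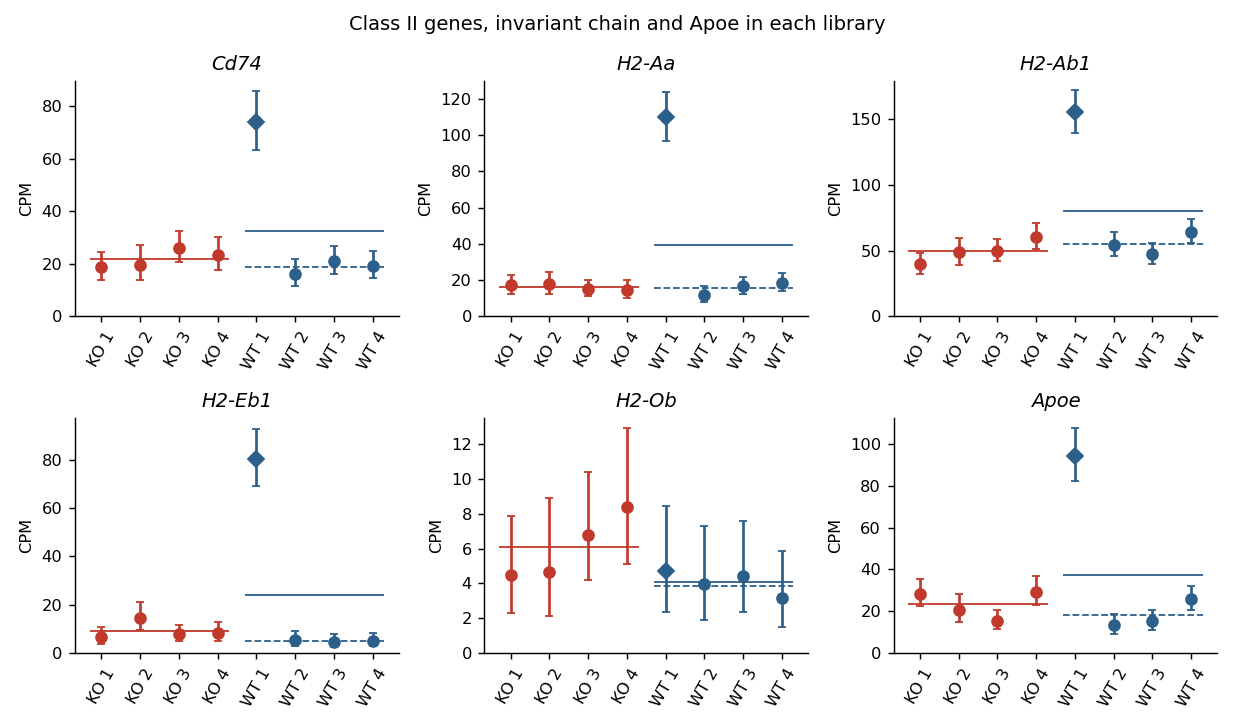
CPM (vertical axes, linear from 0) of each of the 6 genes in the 4 KO and 4 WT libraries (horizontal axes), with exact Poisson 95% intervals that cover counting error only. Solid lines are group means, the dashed line is the WT mean without replicate 1, and the diamond is WT replicate 1, which is the highest library for every gene except H2-Ob.

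WT replicate 1 was at least 3-fold high for 5 of the 6 genes, against 0.631% of all genes examined in it. The counting intervals did not touch those of any other library for these 5 genes: the H2-Eb1 interval in WT replicate 1 ran from 69.3 to 92.8 CPM, and the highest of the other libraries, KO replicate 2, ended at 21.0 CPM. By size of excess among the 8878 genes, H2-Eb1 was at rank 4, H2-Aa at 14, Apoe at 28, Cd74 at 40 and H2-Ab1 at 52, while H2-Ob was at rank 3794. This library was already singled out when the genes were picked, so the excess is a description.

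The genotype difference of these genes turned on that library. Over all 8 libraries the estimated log2 fold change of KO over WT, with its standard error from the edgeR quasi-likelihood fit, was −0.52 ± 0.35 for Cd74, −1.23 ± 0.51 for H2-Aa and −0.68 ± 0.27 for H2-Ab1. It was −1.32 ± 0.71 for H2-Eb1, 0.60 ± 0.30 for H2-Ob and −0.63 ± 0.44 for Apoe. In the authors' deposited table the log2 fold changes, turned to KO over WT, are −0.57 for Cd74, −1.28 for H2-Aa, −0.69 for H2-Ab1, −1.36 for H2-Eb1, 0.60 for H2-Ob and −0.66 for Apoe. Without WT replicate 1 the estimates became 0.23 ± 0.18 for Cd74, 0.03 ± 0.20 for H2-Aa and −0.16 ± 0.15 for H2-Ab1. They became 0.82 ± 0.30 for H2-Eb1, 0.67 ± 0.33 for H2-Ob and 0.35 ± 0.24 for Apoe. Cd74, H2-Aa, H2-Eb1 and Apoe thus changed sign, H2-Ab1 kept a negative sign at a smaller size, and H2-Ob kept its value. Leaving out any other single library kept the sign of all 6 genes.

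The spread shows the same thing in levels. H2-Aa averaged 16.2 ± 1.48 CPM (SD, n = 4) in KO. Its WT average was 39.2 ± 47.1 CPM (SD, n = 4), but 15.6 ± 3.40 CPM without replicate 1 (n = 3). H2-Eb1 averaged 9.36 ± 3.53 CPM in KO and 24.0 ± 37.7 CPM in WT, but 5.12 ± 0.39 CPM without replicate 1. H2-Ab1 averaged 49.8 ± 8.60 CPM in KO and 80.5 ± 50.4 CPM in WT, but 55.5 ± 8.50 CPM without replicate 1. For all 3 chains the WT SD was larger than the difference between the group means while that library was included. In bulk libraries, fewer cells of a type and less RNA per cell cannot be told apart.

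**Figure D2:**
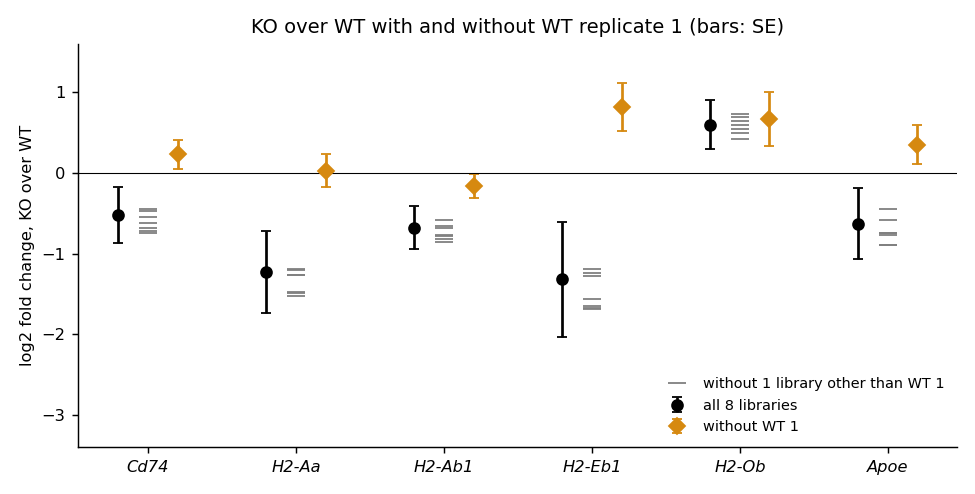
Estimated log2 fold change of KO over WT (vertical axis) for the 6 genes, from all 8 libraries (black circles, bars are SE), without WT replicate 1 (orange diamonds, bars are SE) and without each other library (grey dashes). Cd74, H2-Aa, H2-Eb1 and Apoe cross 0 when WT replicate 1 is left out and for no other library.

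With all 8 libraries, 0 of the 6 genes had KO values wholly above the WT values, against 2.92% of the 9016 genes tested. Without WT replicate 1, H2-Eb1 and H2-Ob had every KO value above every WT value, 2 of 6 genes against 5.86% of 9176 genes. Nothing is read from these counts, because the genes were picked from this contrast. H2-Eb1 rested on 90 UMIs in the 4 KO libraries and 44 in the 3 WT libraries, and H2-Ob on 62 and 33. Of the 3 macrophage and monocyte markers tested, 1 lay above 0 and 2 below 0 without WT replicate 1. That 1 was Lyz2, which encodes lysozyme: without WT replicate 1 its 4 KO values ran from 22.6 to 32.7 CPM and its 3 WT values from 15.8 to 21.1 CPM. The log2 fold change of Lyz2 was 0.71 ± 0.18 there and 0.51 ± 0.20 with all 8 libraries, and it was not called in either (edgeR adjusted p = 0.11 and 0.355). Spi1, a myeloid transcription factor, had −0.15 ± 0.20 and Cd68, a lysosomal protein, −0.02 ± 0.25 without WT replicate 1, and neither was called (edgeR adjusted p = 0.803 and 0.987). C1qa, C1qb and C1qc, which encode the complement protein C1q of macrophages, were listed at 0 in KO replicates 2 to 4. The part of macrophage RNA in the H2-Eb1 values was not tested.

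Outside WT replicate 1 the levels were low but present in every library. Counts of 3′ ends do not scale with transcript length. Among all listed genes, the mean CPM of the 7 libraries put H2-Ab1 at the 72.0th percentile, Apoe at the 49.9th, Cd74 at the 49.2th, H2-Aa at the 43.4th, H2-Eb1 at the 28.5th and H2-Ob at the 21.9th. The coefficient of variation over these 7 libraries was 14.1% for H2-Aa and 15.9% for Cd74, where counting alone would give 15.5% and 13.6%. It was 16.0% for H2-Ab1 against 8.56% from counting, 31.4% for Apoe against 13.5%, 35.3% for H2-Ob against 27.5%, and 44.7% for H2-Eb1 against 23.2%. H2-Aa and Cd74 therefore varied by about as much as counting gives, and H2-Ab1, H2-Eb1 and Apoe by more.

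In those 7 libraries the genes were weakly correlated for the most part, which at these counts is no finding. Pearson's r on log2(CPM + 1), given as a description over libraries of 1 preparation method and similar depth, was −0.18 between H2-Aa and H2-Ab1, the partner chains of I-A. It was 0.20 between Cd74 and H2-Aa, 0.09 between Cd74 and H2-Ab1, and 0.18 between H2-Aa and H2-Eb1. The highest value among the 15 pairs was 0.76, between Cd74 and H2-Ob, and the next was 0.52, between H2-Aa and Apoe. Over all 8 libraries H2-Aa had r = 0.948 with Cd74, 0.927 with H2-Eb1, 0.912 with Apoe and 0.904 with H2-Ab1, but −0.094 with H2-Ob. One library sets these high values.

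The genes whose pattern was most like that of H2-Aa were different with and without that library. Over 8 libraries the 8 highest were Adcy6 (r = 0.985), Mlx (0.978), E2f2 (0.965), Rpusd1 (0.964), Ints8 (0.963), Prrt1 (0.961), Plxnd1 (0.959) and Mxd4 (0.958), and 38 of 9015 genes had r of at least 0.9. Adcy6, an adenylate cyclase, stood at 97.2 CPM in WT replicate 1 and at 53.2 to 59.7 CPM elsewhere. Over 7 libraries the 8 highest were Cdk16 (r = 0.968), Gbp7 (0.965), Rbbp9 (0.962), Kif24 (0.962), Ccdc126 (0.957), Nupl2 (0.935), Atxn1l (0.926) and Adgra3 (0.926), and 14 genes had r of at least 0.9. None of the 5 other genes examined here was among the 8 highest in either case. Over 8 libraries Cd74, H2-Eb1, Apoe and H2-Ab1 were among the 38 genes with r of at least 0.9, and over 7 libraries none of the 5 reached it.

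The make-up of the class II signal differed between WT replicate 1 and the rest. For each 100 UMIs of H2-Ab1, H2-Eb1 had 51.8 in WT replicate 1, between 7.88 and 10.1 in WT replicates 2 to 4, and between 13.8 and 29.8 in the KO libraries. H2-Aa had 70.6 in WT replicate 1, 21.7, 35.0 and 28.6 in the other WT libraries, and 43.4, 36.2, 30.3 and 24.1 in KO. Both were highest in WT replicate 1. Cd74 did not share this: it had 47.6 in WT replicate 1, inside the KO range of 38.6 to 52.3, with 29.7 to 44.3 in the other WT libraries.

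The excess in WT replicate 1 can also be given as the CPM above the mean of the other WT libraries. WT replicate 1 held an extra 99.8 CPM of H2-Ab1, 94.0 of H2-Aa, 75.3 of H2-Eb1, 76.1 of Apoe and 55.1 of Cd74. For each 100 extra CPM of H2-Ab1 this was 94.3 of H2-Aa, 75.5 of H2-Eb1, 76.2 of Apoe and 55.2 of Cd74. The mean of the other WT libraries held 28.2, 9.23, 32.7 and 34.0 per 100 of H2-Ab1, in the same order. H2-Ob went the other way, with 0.886 per 100 of the extra H2-Ab1 against 6.93 in the other WT libraries. The excess thus held more H2-Aa, H2-Eb1, Apoe and Cd74, and less H2-Ob, for its H2-Ab1 than the RNA of the other WT libraries. The H2-Ob value rests on an extra 0.884 CPM, from 11 UMIs in WT replicate 1 with a counting interval of 2.36 to 8.47 CPM. That interval includes the mean of the other WT libraries, 3.85 CPM. These are differences in CPM, and whether they came from other cells or from the sorted cells was not tested.

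Macrophage complement genes were tied to the same library. C1qa, C1qb and C1qc together had 69 UMIs in WT replicate 1, 9 in KO replicate 1, 1 each in WT replicates 2 and 3, and 0 in the other 4 libraries, where a count of 0 allows up to 1.57 CPM. That is 19.1 per 100 UMIs of H2-Ab1 in WT replicate 1 and 8.49 in KO replicate 1. In the 6 remaining libraries there were 2 C1q UMIs beside 875 of H2-Ab1, 253 of H2-Aa and 339 of Cd74. The class II RNA of these 6 libraries was measured with C1q at or near 0. Markers of the macrophage and monocyte list differed outside WT replicate 1. Lyz2 was at 15.8 to 32.7 CPM and Spi1 at 23.4 to 50.6 CPM, while Aif1 was at 0. KO replicate 1, with its 9 C1q UMIs, had the lowest H2-Ab1 of all 8 libraries and the second highest Apoe of the 4 KO libraries. Which cells the class II RNA came from was not tested.

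**Figure D3:**
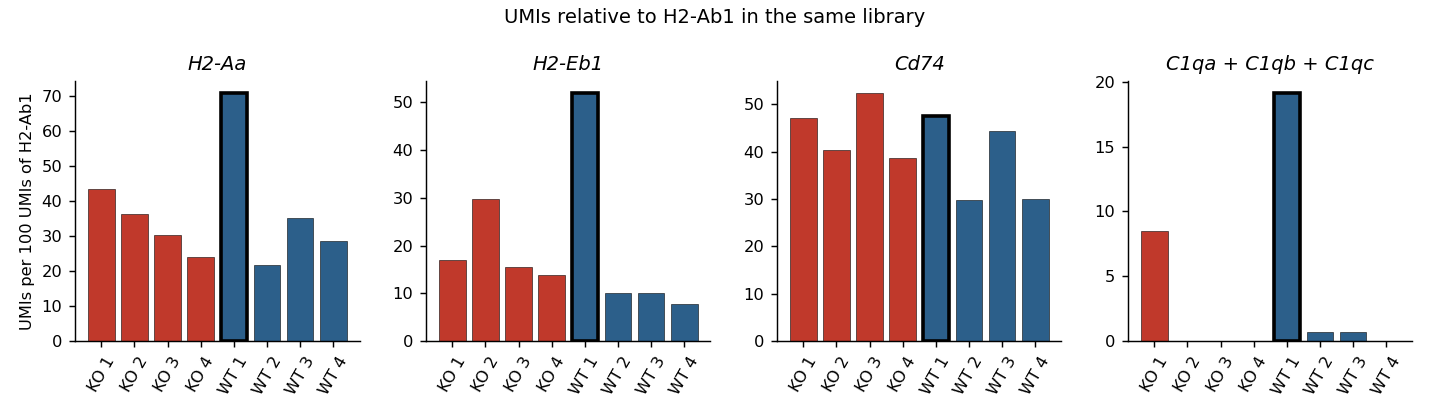
UMIs of H2-Aa, H2-Eb1, Cd74 and the sum of C1qa, C1qb and C1qc per 100 UMIs of H2-Ab1 in the same library (vertical axes, linear from 0) for KO (red) and WT (blue) libraries, with WT replicate 1 outlined. H2-Aa, H2-Eb1 and C1q are highest in WT replicate 1, at 70.6, 51.8 and 19.1, and Cd74, at 47.6, lies among the KO libraries.

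Other markers in WT replicate 1 were mixed. Of the 10 macrophage and monocyte markers listed out of 20, C1qa, C1qb, C1qc and Aif1 were at least 3-fold high, and Aif1, a macrophage calcium-binding protein, had 13 UMIs there and 0 in all other libraries. The summed macrophage and monocyte level was 110.5 CPM in WT replicate 1, 66.6 to 74.6 CPM in the other WT libraries and 71.7 to 90.4 CPM in KO. Its 3 most abundant members were not 3-fold high. Spi1 was at 30.1 CPM in WT replicate 1, inside the 23.4 to 50.6 CPM of the others. Lyz2 was at 29.3 CPM, above the other WT libraries and inside the KO range, and Cd68, at 10.3 CPM, was the highest library over a range of 6.72 to 8.79 CPM. Of the 9 dendritic cell markers listed out of 16, only Ccr7, a homing receptor, was 3-fold high, at 36.6 CPM against 6.15 to 12.0 CPM. The dendritic cell sum was 438 CPM in WT replicate 1, 269 to 333 CPM in the other WT libraries and 279 to 359 CPM in KO, led by Cst3, at 351 CPM in WT replicate 1 against 224 to 300.1 CPM. Ccl22, a chemokine of dendritic cells and macrophages, had 15 UMIs in WT replicate 1 and 0 elsewhere.

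Of the 17 thymocyte and T cell markers listed out of 20, 4 were at least 3-fold high in that library: Cd4, Cd8a, Cd8b1 and Cd6. Cd4, the coreceptor for class II, was at 78.7 CPM in WT replicate 1 and 0.790 to 6.47 CPM elsewhere, the largest excess of the genes examined. Cd8a was at 81.7 CPM against 6.24 to 12.3 CPM, and Cd8b1 at 357 CPM against 33.7 to 65.2 CPM. Cd6, named after its values were seen, was at 72.3 CPM against 19.5 to 29.9 CPM. Most of the list was not 3-fold high, and these markers were mixed. Dntt, at 2118 CPM, and Lck, a T cell kinase at 773 CPM, lay inside the range of the other 7 libraries, as did Cd3e and Arpp21. Further markers were highest in WT replicate 1 without reaching 3-fold. Among them were Cd5, at 52.9 CPM against 29.1 to 41.3 CPM, and Satb1, at 51.2 CPM against 23.4 to 39.9 CPM. The thymocyte and T cell sum was 4866 CPM in WT replicate 1, 3720 to 3804 CPM in the other WT libraries and 3920 to 4536 CPM in KO. The remaining genes among the 15 highest were Xrra1, P2rx1, Prr29, Gpr162 and Gm10499, at 6.02 to 21.9 CPM there.

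No marker of 4 further lists was 3-fold high in WT replicate 1. The 3 B cell markers listed out of 18 summed to 1547 CPM there, 1161 to 1412 CPM in other WT and 864 to 1573 CPM in KO. Nearly all of it was Ly6d, which thymocytes and other lymphoid progenitors also make, at 1493 CPM in WT replicate 1. The 10 thymic epithelial markers listed out of 15 summed to 60.7 CPM, against 39.4 to 49.0 CPM in other WT and 40.6 to 62.4 CPM in KO. The 6 fibroblast and endothelial markers listed out of 10 summed to 87.3 CPM, against 74.1 to 86.6 CPM in other WT and 71.7 to 135 CPM in KO. The ILC2 sum was 2936 CPM, against 2526 to 2818 CPM in other WT. The 7 ILC3 markers listed out of 11 summed to 332 CPM, against 242 to 295 CPM in other WT and 262 to 306 CPM in KO. The part of these cell types in the class II excess was not tested.

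**Figure D4:**
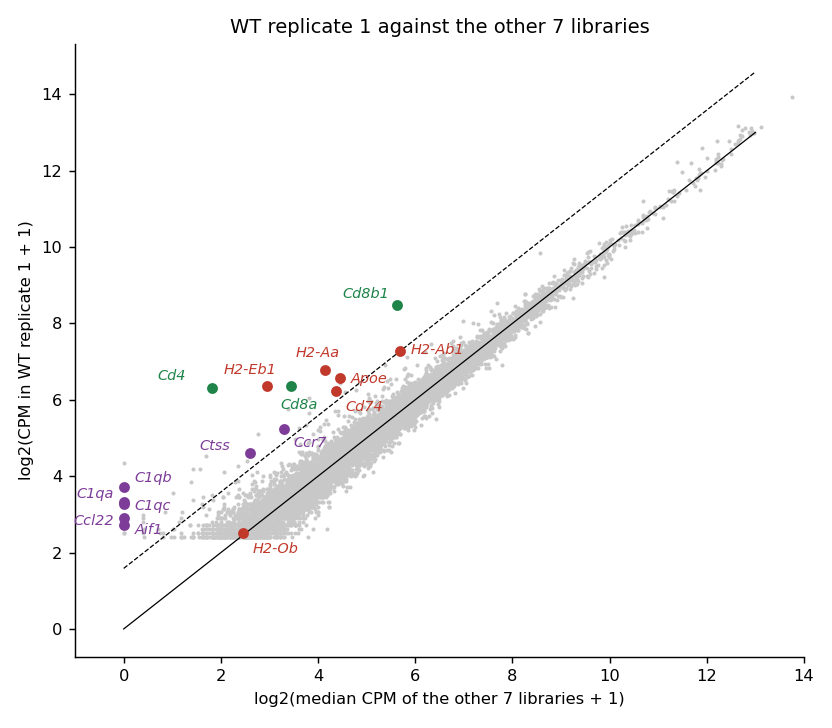
Each grey point is 1 of 8878 genes with at least 10 UMIs in WT replicate 1, with log2(CPM + 1) in WT replicate 1 (vertical) against log2(median CPM of the other 7 libraries + 1) (horizontal). The solid line is equality and the dashed line is 3-fold; Cd74, H2-Aa, H2-Ab1, H2-Eb1 and Apoe (red) lie above the dashed line with C1q, Ctss and Ccr7 (purple) and Cd4, Cd8a and Cd8b1 (green), and H2-Ob lies next to the line of equality.

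The rest of the class II pathway was then compared between KO and WT. The pathway lists were chosen with earlier results of these data known, so their p-values are a description and not an independent test. In 4 lists that cover peptide exchange, transcription factors, proteases and surface partners, 20 of 28 genes were listed and 16 tested. The edgeR quasi-likelihood test, with p-values adjusted by Benjamini-Hochberg over all genes, called 0 of the 16, against 0.211% of 9016 genes. Of the 16, 2 were at an unadjusted p under 0.05, against 10.8% of all tested genes, and DESeq2 also called 0. The median log2 fold change of the 16 was −0.06, beside 0.00 over all tested genes. Without WT replicate 1, 0 of 19 were called, against 0.283% of 9176 genes, with 1 at an unadjusted p under 0.05, against 11.9% of all tested genes.

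H2-DMa, the α chain of the exchange factor H2-DM, was measured at 65.5, 68.1, 64.7 and 83.7 CPM in KO and at 86.5, 68.4, 61.1 and 71.1 CPM in WT. The groups overlapped, and its log2 fold change was −0.02 ± 0.13 (edgeR adjusted p = 0.97). WT replicate 1 was the highest library but by a small margin, so H2-DMa did not share the excess of the chains. H2-DMb1, a β chain of H2-DM, had a log2 fold change of 0.19 ± 0.23 (adjusted p = 0.804, edgeR), and H2-Oa, the α chain of H2-O and partner of H2-Ob, had −0.28 ± 0.20 (adjusted p = 0.643, edgeR). H2-Oa was measured at 31.4, 17.2, 21.4 and 26.0 CPM in KO and at 36.6, 29.6, 20.0 and 31.8 CPM in WT, and the groups overlapped. The partners H2-Oa and H2-Ob thus had estimates of opposite sign. H2-DMb2, with 1 to 8 UMIs per library, was not tested.

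Of the transcription factors that act on the X and Y boxes, 5 were tested, with a median log2 fold change of 0.14. Rfxank, a subunit of RFX, had 0.45 ± 0.29 (edgeR adjusted p = 0.595), and the NF-Y subunits Nfyb and Nfya had 0.14 ± 0.12 and 0.25 ± 0.23 (adjusted p = 0.709 and 0.723, edgeR). None was called. Ciita, the coactivator that controls class II genes, was not analysed here.

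Of the proteases and the reductase that process antigen and invariant chain, 5 were tested, with a median of −0.27. Lgmn, an asparaginyl endopeptidase, was measured at 2.62, 3.12, 4.86 and 8.37 CPM in KO and at 9.46, 7.90, 8.15 and 6.35 CPM in WT, a log2 fold change of −0.72 ± 0.32 (edgeR adjusted p = 0.41). Its groups overlapped through KO replicate 4. Ifi30, a thiol reductase of the endosome, had −0.27 ± 0.17 (adjusted p = 0.587, edgeR). Ctss, cathepsin S, which cuts the invariant chain in antigen-presenting cells, was the gene of these lists that shared the excess. It was measured at 7.11, 4.16, 6.15 and 8.37 CPM in KO and at 23.2, 4.35, 5.10 and 4.76 CPM in WT. The log2 fold change of Ctss was −0.45 ± 0.45 with all libraries (edgeR adjusted p = 0.759) and 0.46 ± 0.30 without WT replicate 1 (adjusted p = 0.578), the same turn of sign as Cd74 and H2-Eb1.

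Of the surface partners, 3 were tested, with a median of −0.27. Mif, the cytokine that binds the invariant chain at the surface, was measured at 1408, 1594, 1158 and 1799 CPM in KO and at 1771, 1889, 1683 and 1843 CPM in WT. For Mif the log2 fold change was −0.27 ± 0.13 (edgeR adjusted p = 0.459), and the groups overlapped through KO replicate 4. Cd44, which signals with the invariant chain, had −0.28 ± 0.30 (adjusted p = 0.779, edgeR), and Cd83, which keeps class II at the surface, had −0.09 ± 0.28 (adjusted p = 0.948, edgeR).

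The interferon γ route, which induces Ciita and through it class II, held the one call. All 9 genes of the list were tested, and 1 was higher in KO and 0 lower, against 0.211% of all genes called. The median log2 fold change was 0.14, beside 0.00 over all tested genes. Ifng, interferon γ itself, was measured at 275, 276, 234 and 334 CPM in KO and at 196, 167, 163 and 182 CPM in WT. Every KO value lay above every WT value, and the log2 fold change was 0.66 ± 0.12 (edgeR adjusted p = 0.0187). Without WT replicate 1 it was 0.71 ± 0.13 (adjusted p = 0.0131, edgeR). The call was lost without KO replicate 4 (edgeR adjusted p = 0.0501), WT replicate 2 (0.112), WT replicate 3 (0.0617) or WT replicate 4 (0.07), with the log2 fold change at 0.57 to 0.68.

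Irf1, a transcription factor that interferon γ induces and that acts on Ciita, was measured at 356, 267, 308 and 323 CPM in KO and at 257, 193, 209 and 222 CPM in WT. The groups did not overlap, and the log2 fold change was 0.51 ± 0.12, which missed the threshold (edgeR adjusted p = 0.0904). It passed without WT replicate 1, at 0.59 ± 0.12 (adjusted p = 0.0434, edgeR), and without KO replicate 2 (0.028). The receptor chains Ifngr1 and Ifngr2 and the kinases Jak1 and Jak2 were not called. Over the 5 lists together, 1 of 25 tested genes was called with all 8 libraries, against 0.211% of all genes, and 2 of 28 without WT replicate 1, against 0.283%. Nothing is read from these shares or from the p-values of Ifng and Irf1, because the lists were chosen with earlier results known.

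**Figure D5:**
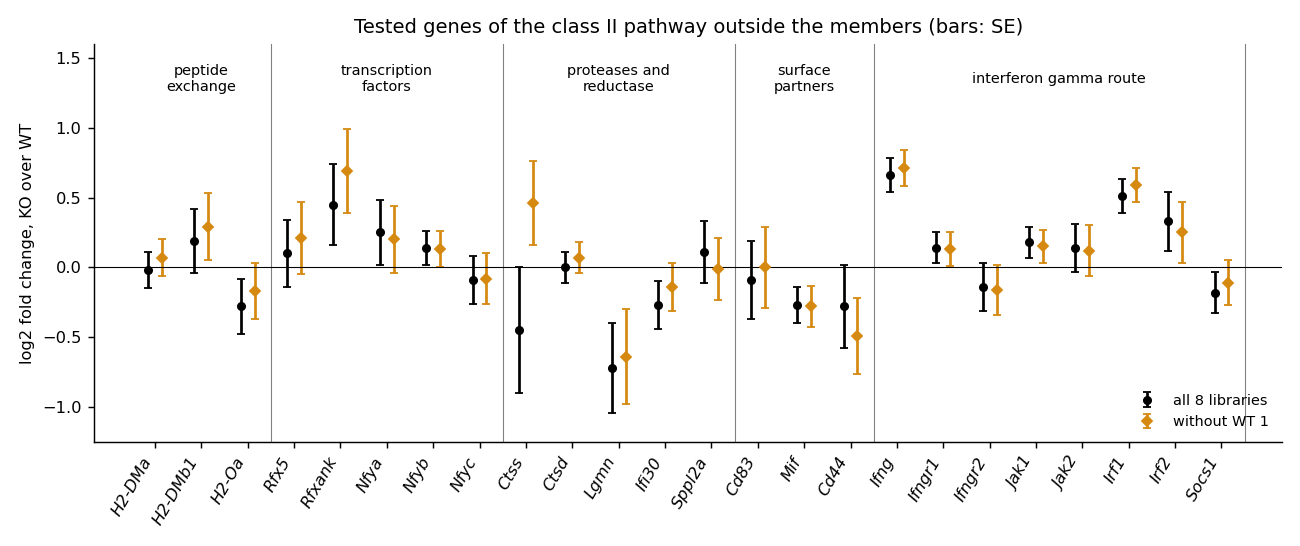
Log2 fold change of KO over WT (vertical axis, bars are SE) for 24 of the 25 tested genes of the 5 class II pathway lists outside the 6 genes, from all 8 libraries (black circles) and without WT replicate 1 (orange diamonds). Ifng, at 0.66, is the gene called with all 8 libraries, and Ctss moves from −0.45 to 0.46 when WT replicate 1 is left out.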

How the data were processed

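Poly(A) RNA of sorted thymic ILC2 was profiled by MARS-seq (per the labels' protocols). Tools listed in the submitters' processing notes are STAR 2.5.2b, HTSeq, DESeq2, cutadapt and bcl2fastq, with mm10 as the build. No source used here states the annotation, the strand setting or the treatment of reads that match several genes, so class II genes with close copies are uncertain.

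Per the file headers, the table holds raw UMI counts, and only these were used for tests. The deposited normalized signal values are the counts divided by a constant per library. The authors also deposited log2 values and log2 fold changes of WT over KO (turned here to KO over WT) and p-values that were not used.

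Counts were analysed with edgeR 4.0.16 in R 4.3.3: filterByExpr (minimum count 10) kept 9016 genes and removed 1897, with TMM scaling (factors 0.949 to 1.058), a quasi-likelihood fit with genotype alone, and Benjamini-Hochberg adjustment at 0.05. Over all genes the common biological coefficient of variation was 0.128. Printed CPM use TMM-scaled library sizes of the genes kept. The steps were tested on simulated data. Intervals are exact Poisson 95% intervals, and the limit for a count of 0 is 3 counts; both cover counting error only. DESeq2 1.42.0, other scalings, no filter, a replicate term and leaving out each library were tried.

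Genes named besides the 6 were every called gene of a pathway list or else the 3 with the lowest p, the 3 highest markers per list, the 15 with the largest excess in WT replicate 1, and the 8 most like H2-Aa; others serve to describe a list. Some genes of the lists entered the counts and sums but are not reported here. The genes and lists were chosen with earlier results of these data known.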

Additional observations from a re-analysis of the deposited data

Results flagged for a closer look

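Each group of 4 libraries was searched for a library far from the other 3, by Dixon's gap over range, in 156 groups. Of these, 29 had one, and 24 of the 29 were WT replicate 1 as the highest WT library. Chance flags about 5% of groups, but many of these genes were picked because they were high in WT replicate 1, so their share is not set against it.

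In WT replicate 1 these were Cd74 at 74.0 CPM, H2-Aa at 109.7, H2-Ab1 at 155, H2-Eb1 at 80.4 and Apoe at 94.2, beside Ctss at 23.2 CPM. The macrophage and dendritic cell genes were C1qa at 9.03 CPM, C1qb at 12.0, C1qc at 8.60, Aif1 at 5.59, Ccl22 at 6.45 and Ccr7 at 36.6. The lymphocyte genes were Cd4 at 78.7 CPM, Cd8a at 81.7 and Cd8b1 at 357, with the thymocyte and T cell sum at 4866 CPM. Other genes were Xrra1 at 19.4 CPM, P2rx1 at 21.9, Prr29 at 6.02, Gpr162 at 17.2 and Gm10499 at 17.2. Ctsh at 6.45 CPM, Plbd1 at 6.88 and Lgals3 at 16.4, named after their values were seen, did the same.

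KO replicate 1 was the only KO library with C1qa, C1qb or C1qc, each at 1.12 CPM from 3 UMIs. A single low WT library was found for Tnfsf11 (71.8 CPM in WT replicate 1) and Cd83 (3.56 CPM in WT replicate 2).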

How the results depend on the processing

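Under other scalings, no filter, DESeq2 and the replicate block, 30 of 30 log2 fold changes of the 6 genes kept their sign. So did all 42 with a library other than WT replicate 1 left out. Of the 30, 0 moved by 1 SD, the spread of log2(CPM + 1) within groups with WT replicate 1 included. That SD is wide, at 1.36 for H2-Eb1 and 0.995 for H2-Aa. The replicate block moved H2-Eb1 from −1.32 to −0.74 and H2-Aa from −1.23 to −0.89. Leaving out each library in turn gave ranges of −0.74 to 0.23 for Cd74, −1.53 to 0.03 for H2-Aa, −0.86 to −0.16 for H2-Ab1, −1.69 to 0.82 for H2-Eb1, 0.42 to 0.73 for H2-Ob and −0.90 to 0.35 for Apoe. The upper ends belong to WT replicate 1 for all but H2-Ob. The log2 excess of WT replicate 1 changed from 2.65 to 2.41 for H2-Aa and from 3.40 to 2.86 for H2-Eb1 with a pseudocount of 5, and against the other 3 WT libraries it was 3.74 for H2-Eb1 and 2.55 instead of 2.13 for Apoe.

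The count of called genes over the table was 19 and depended on the tool and the libraries: DESeq2 called 49, and leaving out 1 library gave 1 (without WT replicate 2) to 39 (without KO replicate 2), with 4 without WT replicate 4 and 26 without WT replicate 1. Of the pathway genes, 1 was called, 2 by DESeq2 (Irf1 joined Ifng), and 0 to 2 with a library left out. The cause was not tested.

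Replicate numbers are shared between the genotypes, but whether they pair the libraries was not established. Same-numbered libraries had correlations of −0.006 to 0.138 in their deviations from the group means. The libraries numbered 1 and 4 correlated best with their own number while those numbered 2 and 3 did not. With the replicate block, 60 genes were called over the table and 2 pathway genes, and the log2 fold change was −0.37 for Cd74, −0.89 for H2-Aa, −0.56 for H2-Ab1, −0.74 for H2-Eb1, 0.59 for H2-Ob and −0.40 for Apoe.

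H2-Ob, with 9 to 21 UMIs per library, and H2-Eb1 outside WT replicate 1, with 14 to 28, are limited by depth.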
